A study of Mus musculus with 2 samples.

Results

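The complement genes C1ra, Serping1, C2, C3, C4b, Cfb, C3ar1, C5ar1 and Cd59a were compared between the brain of a GPHR F/F;Nes mouse and that of a GPHR F/F littermate control. They are 9 of the 37324 named genes or entries on the array, picked by name as proteases, central components, inhibitors and receptors of the cascade, with the C1q chains not among them. The genes were selected on the same contrast that is reported here, with the difference of each probe's log2 signal between the genotypes already known, so every difference below is a description and supports nothing beyond itself. Total brain RNA was hybridised to 1 single-colour Agilent array per genotype, both from C57BL/6J mice at postnatal day 10, and both genotypes carried GPHR F/F. GPHR (the Golgi pH regulator, Gpr89 in the mouse) is a membrane protein of the Golgi. The labels do not spell out what Nes stands for, which promoter or cells it acts in, or how many animals gave each RNA. With 1 array per genotype there was no replicate, no test was possible, and no difference has a replicate check.

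Complement is a proteolytic cascade of plasma and tissue fluids that is also made locally in the brain. In the classical pathway C1q binds a surface and its proteases C1r and C1s cut C4 and C2, whose fragments form an enzyme that cuts C3. Factor B builds the matching enzyme of the alternative pathway, and the small fragments of C3 and C5 act on the receptors C3aR and C5aR. In the developing brain C1q and C3 are known for tagging synapses that microglia then remove.

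For C1ra, Serping1, C2, C4b, C3 and C3ar1 a single probe is given by its first bases, 5′ to 3′, so that its value can be tied to its target. All are in lower case since no part is marked. For C4b and C3 it is the probe called the first below. The second probes of C4b and C3 and both probes of Cd59a, also measured, are not printed. C3ar1 was above background on the GPHR F/F;Nes array alone. Each printed stretch is 30 of the probe's 60 bases, and coordinates are on mm9. Which exon, intron or untranslated region each probe lies in was not analysed here.
C1ra, chr6:124473052-124473111, plus strand: tctgaccaattgttgataagcactatgatt
Serping1, chr2:84605663-84605722, minus strand: tgggtaaacattgtcacccaagcttcagct
C2, chr17:34999575-34999634, minus strand: tctctagtgtggatgacccgtgctcctttt
C4b, chr17:34866361-34866420, minus strand: tcactggagcgaagggtggaggacaaggat
C3, chr17:57343416-57343475, minus strand: attcacagaatctatggtggtttatggttg
C3ar1, chr6:122798222-122798281, minus strand: tgccatcatctcagtgtagcacacacaatc

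Both arrays held 56603 distinct probes after outlier spots were left out, and 36717 probes, for 24112 genes, were well above background on both. The signal at the 75th percentile was 173.4 units in GPHR F/F;Nes and 259.5 units in GPHR F/F, and each array was scaled to its own percentile. A difference is the log2 of the scaled signal in GPHR F/F;Nes minus that in GPHR F/F. The value after ± is the scanner software's error for the spots, which holds no biological spread. For a mean of several probes it was combined as if probe errors were independent, which was not tested and may make it too small. Gpr89, the targeted gene, had a signal of 20.04 units in GPHR F/F;Nes and 43.3 units in GPHR F/F, a difference of -0.53 ± 0.22. Whether its probe lies in the removed part was not analysed here. The arrays also differed in sex-linked genes, which the labels do not mention. Xist, transcribed from the inactive X, was at 234.1 units in GPHR F/F;Nes and 1.36 units in GPHR F/F, and Y-linked Eif2s3y was at 1.93 units in GPHR F/F;Nes and 710.4 units in GPHR F/F. Y-linked Ddx3y and Uty were likewise above background on the GPHR F/F array alone. Y-linked Kdm5d had 1 of 6 probes measured on both arrays, at 135.9 units in GPHR F/F;Nes and 155.0 units in GPHR F/F. Whether that probe reads its target alone was not analysed here. Since Xist, Eif2s3y, Ddx3y and Uty differed in this way, sex and genotype cannot be told apart on these arrays.

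Among the 9 complement genes, 6 were measured on both arrays, C3ar1 was above background on the GPHR F/F;Nes array alone, and Cfb and C5ar1 were above background on neither. Of the 6, C1ra, Serping1 and C3 were at least 2-fold higher in GPHR F/F;Nes, none was 2-fold lower, and C4b, Cd59a and C2 lay within 2-fold. Over all measured genes the share past 2-fold was 7.93% upward and 1.37% downward, and since the genes were chosen on this contrast nothing is read from their count against that share. The median difference of the 6 was 1.13, with a range of -0.57 to 2.15, and the median over all measured genes was 0.07. Centring the arrays on their medians put the median of all genes at -0.20, with 1081 genes 2-fold higher and 818 lower, beside 1912 higher and 330 lower as reported, and spike-in scaling put it at -0.88. Both settings shift every gene by the same amount, so a gene's place against the median of all genes could not change. C1ra, Serping1, C3, C4b and Cd59a lay above that median and C2 below it.

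**Figure D1:**
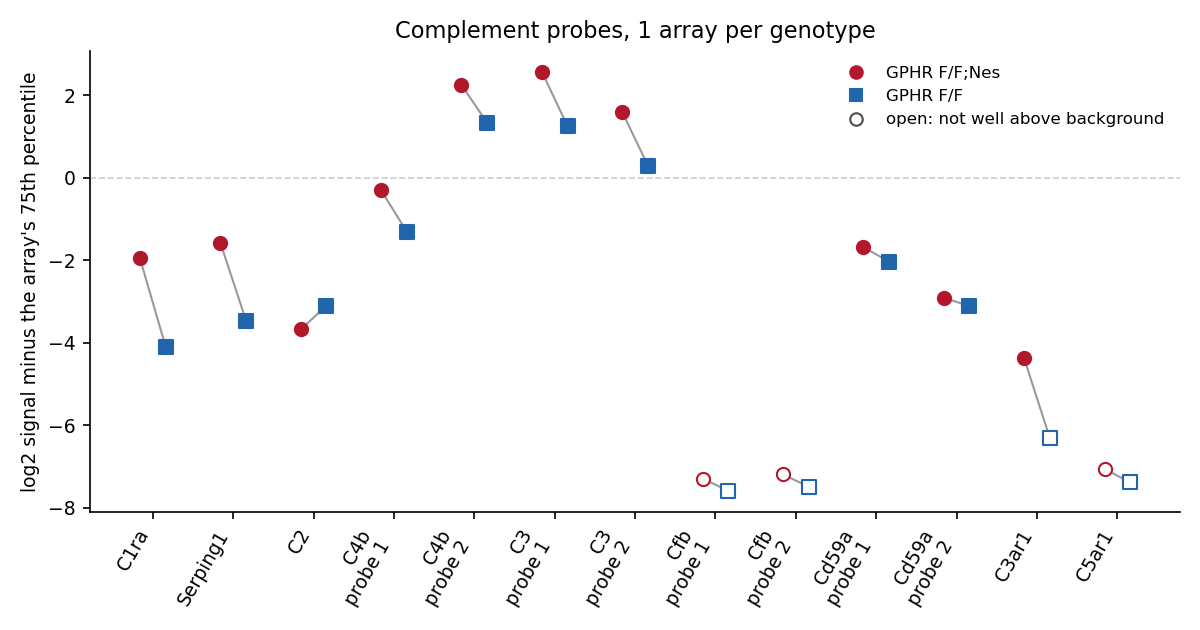
Log2 signal minus the array's 75th percentile (vertical axis) for each of the 13 probes of the 9 complement genes (horizontal axis), 1 array per genotype, with GPHR F/F;Nes as circles left of GPHR F/F as squares and open symbols for signals not well above background. C1ra stood at -1.95 in GPHR F/F;Nes and -4.10 in GPHR F/F, while C2 stood at -3.68 in GPHR F/F;Nes and -3.11 in GPHR F/F.

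The C1 protease and its inhibitor were both higher under the reported scaling. C1ra, the C1r protease that activates C1s, gave 44.8 units in GPHR F/F;Nes and 15.1 units in GPHR F/F. The signal was higher in GPHR F/F;Nes even before scaling, with a raw ratio of 2.96. After scaling the difference was 2.15 ± 0.24, a fold of 4.43. Serping1, the C1 inhibitor that dissociates C1r and C1s from C1q, gave 58.2 units in GPHR F/F;Nes and 23.5 units in GPHR F/F. Its raw ratio was 2.47 and its difference 1.89 ± 0.22, a fold of 3.70, again higher in GPHR F/F;Nes. Both were dim. Background correction by normexp put the differences at 0.64 for C1ra and 0.76 for Serping1, under 2-fold and below C3 at 1.20. Normexp was run with an offset of 50 units added to every signal, which by itself shrinks a difference between dim signals. The normexp values of dim genes, here and below, therefore cannot show whether a 2-fold difference holds. Under scaling to the spike-in probes the differences were 1.20 for C1ra and 0.94 for Serping1. Since the RNA came from whole brain, a change in the number of expressing cells and a change in RNA per cell cannot be told apart, here or for any gene below.

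Of the components cut by C1s, C4b was higher and C2 lower in GPHR F/F;Nes under the reported scaling, both within 2-fold. C4b, the C4 of classical complement, was read by a pair of probes. The first gave 140.2 units in GPHR F/F;Nes and 104.7 units in GPHR F/F, a difference of 1.0 ± 0.21. The second gave 822.2 units in GPHR F/F;Nes and 652.5 units in GPHR F/F, a difference of 0.92 ± 0.20. Both probes were higher in the GPHR F/F;Nes brain, at a mean of 0.96 ± 0.14 or 1.94-fold, just under the 2-fold line. Scaling to the spike-in probes brought this to 0.0073. C2, the protease that joins C4b in the C3-cutting enzyme, gave 13.5 units in GPHR F/F;Nes and 30.1 units in GPHR F/F. It was the measured member lower in GPHR F/F;Nes, with a difference of -0.57 ± 0.26 (1.48-fold), and the other scalings and corrections put it between -0.89 and -0.23, or at -1.52 with the spike-in probes. Cfb, factor B, was not above background on either array, its pair of probes reading 1.1 and 1.18 units in GPHR F/F;Nes, against 1.34 and 1.44 units in GPHR F/F. One of these probes spans 357 bases on the genome.

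C3, the component on which all pathways meet, was read by a pair of probes that lay side by side on chromosome 17. The first gave 1027.9 units in GPHR F/F;Nes and 615.1 units in GPHR F/F, a difference of 1.32 ± 0.20. The second gave 522.1 units in GPHR F/F;Nes and 317.5 units in GPHR F/F, a difference of 1.30 ± 0.20. The probes differed from each other by little (SD 0.02), and the gene's mean was 1.31 ± 0.14, a fold of 2.48 toward GPHR F/F;Nes. The range over the other scalings and corrections was 1.04 to 1.42, and with the spike-in probes the difference was 0.36.

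The receptors were at or below the limit of detection. C3ar1, the receptor for the C3a fragment, gave 8.33 units in GPHR F/F;Nes and 3.26 units in GPHR F/F, where the lowest signal called well above background was 6.28 units. It was thus at least 1.98-fold higher in GPHR F/F;Nes, with a scanner error of 0.65 on the log2 difference of its probe, and with the spike-in probes the bound was 1.03-fold. C5ar1, a receptor for C5a, gave 1.30 units in GPHR F/F;Nes and 1.55 units in GPHR F/F and no fold can be given. Cd59a, a membrane protein that stops assembly of the membrane attack complex, was measured with a pair of probes. They gave 53.9 and 23.1 units in GPHR F/F;Nes, against 63.2 and 29.9 units in GPHR F/F, with differences of 0.35 ± 0.21 and 0.21 ± 0.23. Both raw signals were lower in GPHR F/F;Nes while both scaled values were higher, and the mean of 0.28 ± 0.15 became 0.0033 when arrays were centred on their medians and -0.67 with the spike-in probes, so its direction turns with the scaling.

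**Figure D2:**
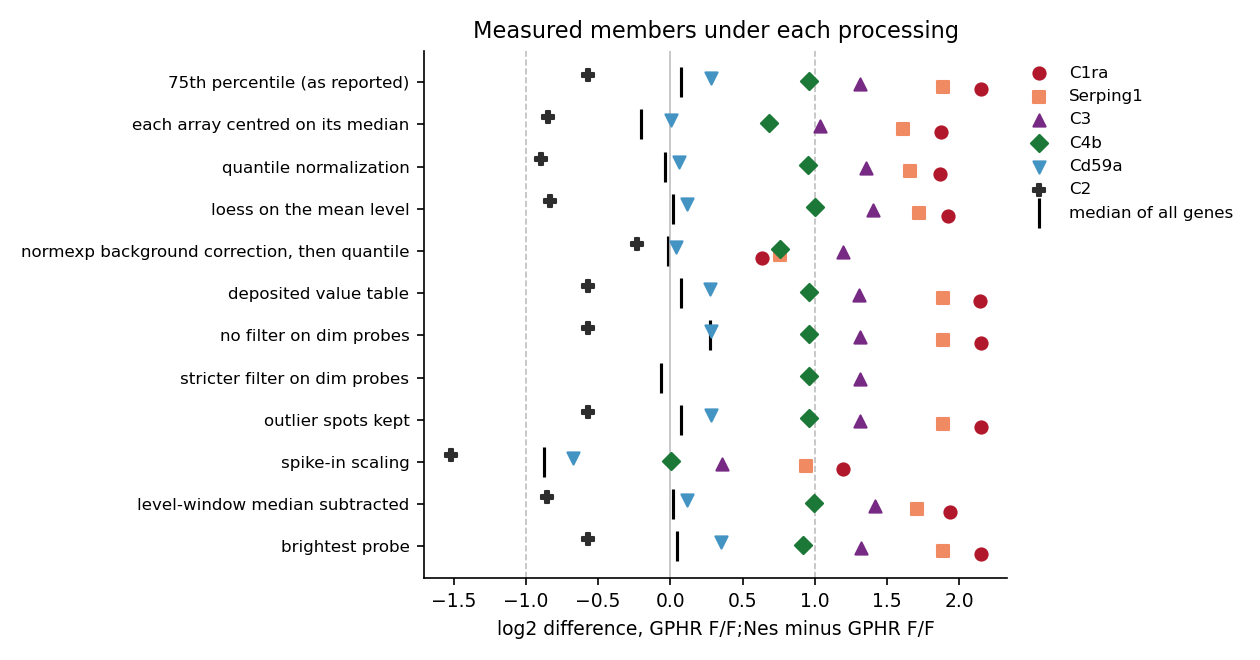
Log2 difference between the genotypes (positive where GPHR F/F;Nes was higher, horizontal axis), of the 6 complement genes measured on both arrays under each processing (rows), with a black bar at the median of all genes and dashed lines at 2-fold. C2 stayed below 0 in every row that shows it, and Cd59a turned to -0.67 under spike-in scaling. C1ra was at 0.64 under normexp, whose added offset shrinks differences between dim signals.

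The spread of differences widened toward dim probes, where C1ra, Serping1 and C2 lay. Among 2594 probes within 0.25 log2 units of C1ra's mean level the differences had a median of 0.21 (SD 0.67), and 12.5% were at least 2-fold higher. Around Serping1 the median was 0.18 with an SD of 0.61, and 9.58% were at least 2-fold higher. Around C2 the median was 0.29 with an SD of 0.66, and 6.5% lay at or below the difference of C2. Around the brighter C3 probes the medians were -0.11 and -0.10, and 2.56% and 3.93% were at least 2-fold higher. With the median of these neighbours subtracted, a setting chosen after the values were seen, C1ra was at 1.94, Serping1 at 1.71, C3 at 1.42, C4b at 1.0, Cd59a at 0.11 and C2 at -0.86.

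**Figure D3:**
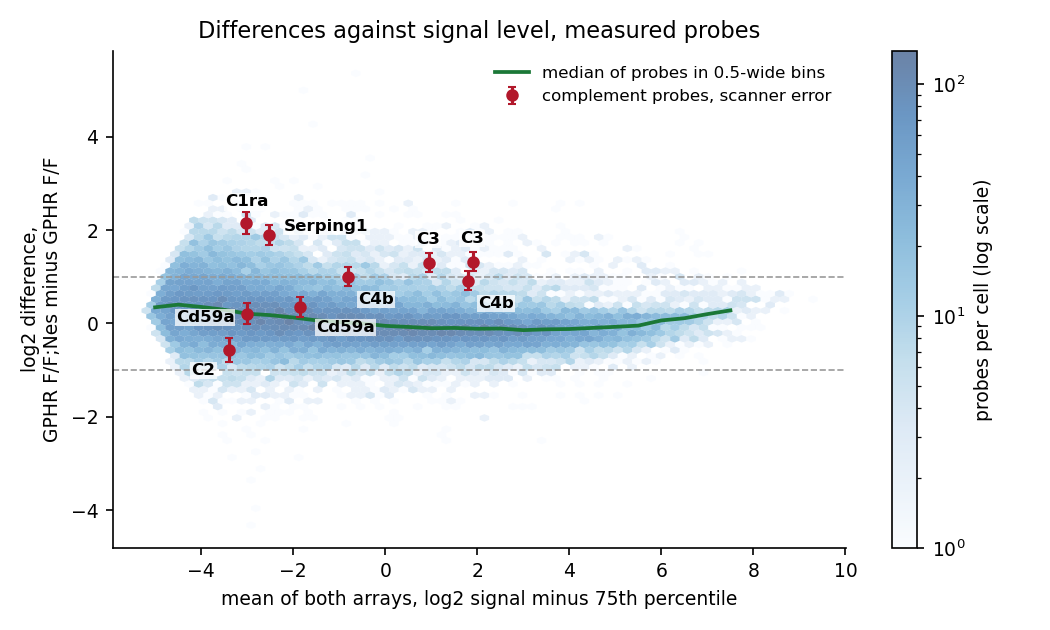
Log2 difference between the genotypes (positive where GPHR F/F;Nes was higher, vertical axis), against the mean scaled log2 signal of both arrays (horizontal axis) for all probes measured on both (shading, probes per cell on a log scale), with the 9 probes of the complement genes in red and scanner error as bars. The green line is the median in bins, and C1ra at 2.15 and Serping1 at 1.89 sat on the dim side where the shading was widest.

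Of 55 other genes of the pathway, 53 were on the array and 38 were measured on both. In this wider set 9 were at least 2-fold higher in GPHR F/F;Nes (23.7%, beside 7.93% of all measured genes), none was 2-fold lower (1.37% of all measured genes), and the median difference was 0.47, beside 0.07 for all measured genes. These genes were listed with earlier results of the data known, so nothing is read from their count against that share. With the spike-in probes the median was -0.48, and with the stricter filter on dim probes it was -0.08. That filter kept 18 of the 38, of which 1 was at least 2-fold higher, beside 3.60% of all genes under it. Scaling to the spike-in probes lowers every difference by 0.95, so genes printed between 0 and 0.94 then lay below 0.

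At the start of the classical and lectin pathways 12 of 18 genes were measured and 5 were at least 2-fold higher, with none lower by that much. C1s1, a C1s protease that is cut by C1r, gave 49.6 units in GPHR F/F;Nes and 18.6 units in GPHR F/F, a difference of 1.99 ± 0.23. C1s2, its near copy, differed by 1.86 ± 0.22. The C1q chains differed by 1.85 ± 0.23 for C1qc, 1.24 ± 0.28 for C1qa and 1.0 ± 0.22 for C1qb. Masp2, the lectin pathway protease, differed by 1.28 ± 0.29. With normexp none of these was past 2-fold, at 0.70 for C1s1, 0.67 for C1s2, 0.60 for C1qc, 0.19 for C1qa and 0.17 for Masp2. Its offset of 50 units left little room for a 2-fold difference at such dim signals. C1qa, for example, was at 19.2 units in GPHR F/F;Nes and 12.1 units in GPHR F/F. C1qa at 0.87 and Masp2 at 0.90 were also under 2-fold with quantile normalization, and Masp2 was at 0.32 without the filter on dim probes. Colec11 was at -0.13 and Masp1 at -0.16, the last with a direction that turned under both other filters on dim probes. Mbl1, Mbl2, Fcna, Fcnb and Colec10, which recognise sugars on surfaces, were above background on neither array. The probes of C1ra and C1rb, C1s1 and C1s2, C4b and C4a, and Cd59a and Cd59b target close paralogs, and whether each probe binds 1 of them alone was not analysed here. C1rb differed by 0.58 ± 0.29, C4a by 0.84 ± 0.23 and Cd59b by 0.65.

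In the terminal pathway 3 of 7 genes were measured and all 3 lay within 2-fold. Hc, the mouse C5, gave 95.4 units in GPHR F/F;Nes and 71.4 units in GPHR F/F, a difference of 1.0 ± 0.21. C9, which forms the pore, was above background on the GPHR F/F;Nes array alone, at 16.9 units against 5.80 units in GPHR F/F. Under the reported scaling C9 was at least 4.02-fold higher, and with the spike-in probes the bound was 2.08-fold. C6, C8a and C8b were above background on neither array. Of the alternative pathway, properdin (Cfp), which stabilises its enzyme, differed by 0.48.

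Among 21 inhibitors 17 were measured, 2 were at least 2-fold higher and none was 2-fold lower, and their median was 0.01. Vtn, vitronectin, which blocks the terminal complex, gave 96.8 units in GPHR F/F;Nes and 19.5 units in GPHR F/F, a difference of 2.89 ± 0.23. Clu, clusterin, gave 26767.5 units in GPHR F/F;Nes and 20980.4 units in GPHR F/F, a difference of 0.93 ± 0.20. A split of the list made after the values were seen set apart 8 sushi and CUB domain genes expressed in neurons, Csmd1, Csmd2, Csmd3, Sez6, Sez6l, Sez6l2, Srpx2 and Susd4. Of these 7 lay below 0 and Sez6 at 0.0089, with a median of -0.40, and without the filter on dim probes Csmd2 lay above 0. Sez6l2 was at -0.65, Sez6l at -0.64 and Csmd3 at -0.59. The remaining 9 measured inhibitors had a median of 0.46, with 8 above 0, of which Cd55 and Cd55b, among others, lay below 0 under some of the other scalings. The means of the 9 neuronal marker genes all lay below 0 too, with a median of -0.28, Rbfox3 at -0.88 and Syn1 at -0.30. Single probes did not all do so. Those of Snap25 ran from -0.84 to 0.87, the brightest being the highest, and Map2, Gad1 and Gad2 also had probes above 0. The part of neuronal genes in the result was not tested.

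Of the receptors 5 of 7 genes were measured and 2 were at least 2-fold higher. Itgam, the alpha chain of complement receptor 3 on microglia and macrophages, was measured by 1 of its 2 probes. That probe gave 15583.9 units in GPHR F/F;Nes and 10449.9 units in GPHR F/F, a difference of 1.16 ± 0.20. Itgb2, the beta chain of the same receptor, gave 15.1 units in GPHR F/F;Nes and 8.82 units in GPHR F/F, a difference of 1.36 ± 0.31. The signals of these chains lay far apart, and whether the Itgam probe reads its target alone was not analysed here. Itgb2 was under 2-fold with quantile normalization at 0.94, with normexp at 0.15 and with the spike-in probes at 0.41. The offset of normexp shrinks differences between signals as dim as those of Itgb2. Itgam was under 2-fold with arrays centred on their medians at 0.88 and with the spike-in probes at 0.21. Vsig4, a complement receptor of tissue macrophages, was above background on the GPHR F/F;Nes array alone, at 36.0 units against 1.35 units in GPHR F/F. Under the reported scaling Vsig4 was at least 8.57-fold higher, and with the spike-in probes the bound was 4.43-fold. C5ar2, the neighbour of C5ar1 on chromosome 7, differed by 0.44.

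**Figure D4:**
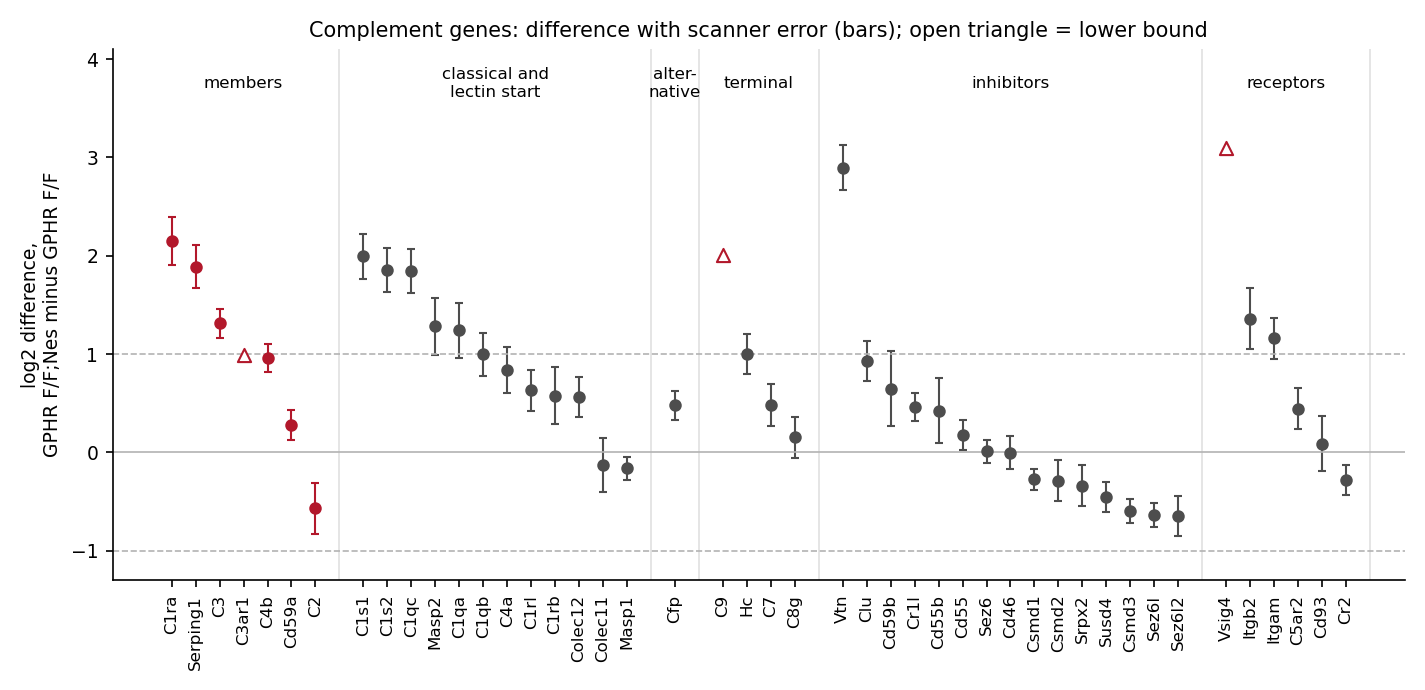
Log2 difference between the genotypes (positive where GPHR F/F;Nes was higher, vertical axis), of complement genes measured on both arrays, grouped by role (horizontal axis), with scanner error as bars and open triangles for lower bounds of genes above background on the GPHR F/F;Nes array alone. Vtn lay at 2.89 and C2 at -0.57 was the member below 0, and under spike-in scaling every point would move down by 0.95.

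C4b, C4a, Cfb and C2 lie together on chromosome 17, within 134.3 kb from 34865367 to 34999634 on mm9. Between them the array read 10 measured probes of 5 genes that are not complement genes (Cyp21a1, Stk19, Dxo, Skiv2l and Nelfe), whose differences ran from -0.47 to 0.75 with a median of 0.10. C4b at 0.96 ± 0.14 lay above that range and C2 at -0.57 ± 0.26 below it, C2 by less than its scanner error. C1ra shares a stretch of 64.9 kb on chromosome 6 with C1rl, C1s1 and C1rb, which differed by 0.63 for C1rl, 1.99 for C1s1 and 0.58 for C1rb.

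Of 21 interferon-stimulated genes 17 were measured and 11 were at least 2-fold higher, with a median of 1.34 and none lower by that much. The share over all measured genes was 7.93% upward and 1.37% downward, for this list and those below. All these lists were chosen with earlier results known, and no normexp values are given for their genes. Cxcl10, a chemokine of the interferon response, had a difference of 3.60, Gbp2 one of 1.92 and Ifitm3 one of 1.88. Of 16 inflammatory and acute-phase genes 14 were measured, 6 were at least 2-fold higher and none lower by that much, with a median of 0.66 and 2 genes below 0. Lcn2, an acute-phase iron carrier protein, differed by 2.33, the chemokine Ccl2 by 2.32 and the protease inhibitor A2m by 2.0. Of the classical inflammatory cytokines, Tnf was measured at -0.34, and Il1b and Il6 were above background on neither array.

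Marker genes of cell types that make complement were read on the same arrays. Of 11 microglial genes 9 were measured, 3 were at least 2-fold higher, and the median was 0.54 over a range of 0.17 to 2.14. Their summed scaled signal, in multiples of the array's 75th percentile, was 17.6 in GPHR F/F;Nes and 14.6 in GPHR F/F. Siglech, whose probes ran opposite ways at -0.29 and 0.63, made up most of both sums, and without it they were 5.50 in GPHR F/F;Nes and 3.93 in GPHR F/F. Cx3cr1 gave 66.2 units in GPHR F/F;Nes and 30.8 units in GPHR F/F, while P2ry12, a defining microglial gene, was above background on neither array. Tmem119, another one, was above background on the GPHR F/F;Nes array alone (19.6 units against 6.39 units in GPHR F/F). Under the reported scaling alone Tmem119 was at least 4.6-fold higher. Trem2 differed by 2.14 and Tyrobp by 2.08. Of 7 border macrophage genes 3 were measured and 2 were at least 2-fold higher, with sums of 0.401 in GPHR F/F;Nes and 0.170 in GPHR F/F, and Mrc1 and Cd163 were above background on neither. Of 8 genes of monocytes and neutrophils 1 was measured on both, and Ccr2 was above background on neither. Ly6c2 was above it on the GPHR F/F;Nes array alone (8.78 units against 5.13 units in GPHR F/F). Its bound of at least 2.09-fold higher holds for the reported scaling alone. All 8 astrocyte genes were measured and none was past 2-fold, with a median of 0.19, a range of -0.83 to 0.82, and sums of 56.8 in GPHR F/F;Nes and 57.7 in GPHR F/F. Gfap differed by 0.82 and Aqp4 by 0.58. The part of these cells in the complement differences was not tested.

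Of 9 genes of meningeal fibroblasts 8 were measured and 6 were at least 2-fold higher, with a median of 2.17 and sums of 15.9 in GPHR F/F;Nes and 9.0 in GPHR F/F. Col1a1 differed by 1.44, Col1a2 by 2.61 and Dcn by -0.07. Of 9 choroid plexus genes 6 were measured and 3 were at least 2-fold higher, with a median of 1.14 and sums of 6.00 in GPHR F/F;Nes and 0.938 in GPHR F/F. Ttr, a carrier of thyroid hormone made by the choroid plexus, gave 715.7 units in GPHR F/F;Nes and 26.2 units in GPHR F/F, a difference of 5.35, and carried most of the sum in GPHR F/F;Nes. Folr1 differed by 1.43 and Prlr by 0.12. Of 10 genes of endothelial and mural cells 5 were measured and 3 were at least 2-fold higher, while Pecam1 was at -0.07, Slco1c1 at -0.31 and Cldn5 above background on neither. Of 8 hepatocyte genes 1 was measured on both arrays, at -0.12, Alb was above background on the GPHR F/F;Nes array alone at 7.21 units against 4.6 units in GPHR F/F, and Apoa1 was above background on neither. The difference of 1 erythrocyte gene measured of 5, Hba-a1, was -0.28, and Hbb-b1 was above background on neither. All 8 genes of the oligodendrocyte lineage were measured, none past 2-fold, with a median of -0.07, and Mbp differed by 0.05 with probes from -0.86 to 0.53. How much meninges or choroid plexus each brain sample held is not given in the labels, and its part in the complement differences was not tested.

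**Figure D5:**
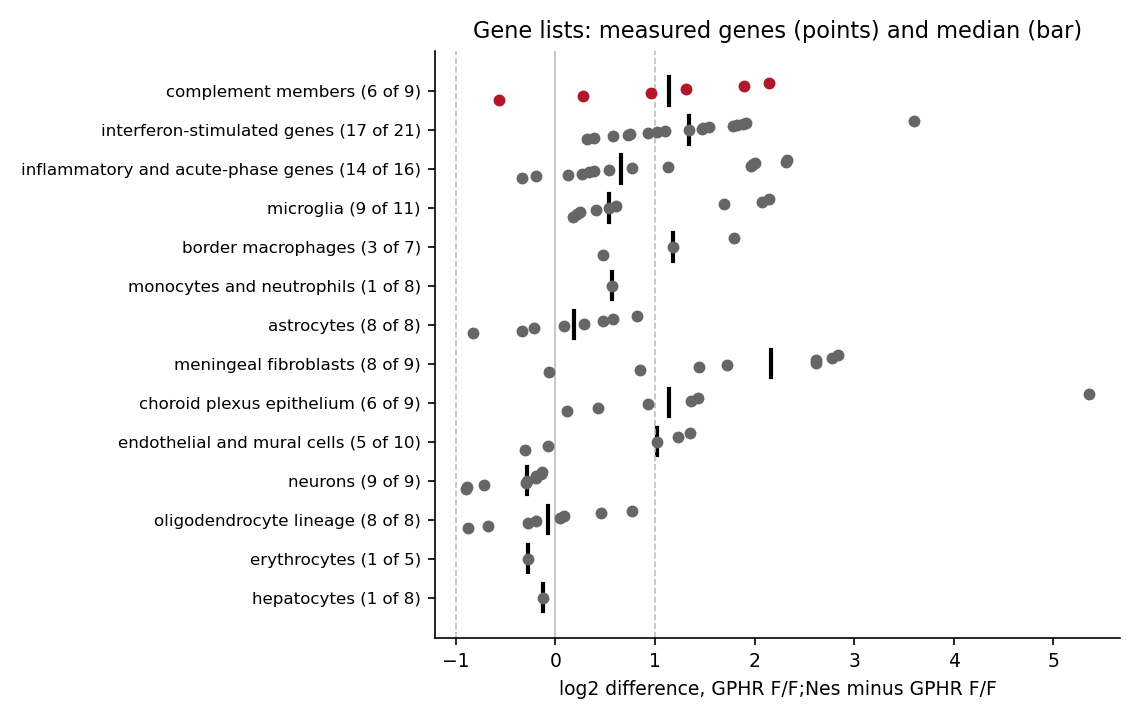
Log2 difference between the genotypes (positive where GPHR F/F;Nes was higher, horizontal axis), of each measured gene (points) in each list (rows, with measured of listed genes in brackets), with black bars at the list medians and dashed lines at 2-fold. Choroid plexus Ttr lay at 5.35 and meningeal fibroblast genes had the median of 2.17, while the means of neuronal genes all lay below 0. Under spike-in scaling every point would move down by 0.95.

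The RefSeq table (GRCm38.p6) held the upstream sequence of C1ra, C3, C3ar1, C5ar1 and Cd59a, 5 of the 9 genes. The 250 bases before the start were searched on both strands for GAAANNGAAA (the core of interferon response elements), TTCNNNGAA (STAT), TTNNGNAA (C/EBP) and GGGNNNTTCC (NF-kB). C3 held 3 C/EBP matches, 70 to 63, 58 to 51 and 45 to 38 bases before the start, which do not overlap. At least 1 match is present in 36.8% of the 32851 promoters in the table, and 3 or more in 2.61%. C1ra held 2 C/EBP matches, C5ar1 held 1, Cd59a held 1 interferon element match (a share of 2.98% of promoters) and C3ar1 held 1 NF-kB match (4.65%). No STAT match, present in 7.02% of promoters, was found in these 5 windows. The promoters of C3 and C1ra are printed because those genes were at least 2-fold higher, with C/EBP matches in capitals. A match is a description of the letters and shows no binding. Among the factors that can bind such sites, Cebpd differed by 1.97 and Cebpb by 0.39.
C3, GRCm38.p6 chr17:57228137-57228386, minus strand: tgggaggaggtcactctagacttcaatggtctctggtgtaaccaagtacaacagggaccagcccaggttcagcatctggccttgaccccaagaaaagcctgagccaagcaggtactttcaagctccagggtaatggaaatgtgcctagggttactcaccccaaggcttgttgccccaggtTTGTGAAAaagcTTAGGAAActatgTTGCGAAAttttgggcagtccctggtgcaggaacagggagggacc
C1ra, GRCm38.p6 chr6:124512371-124512620, plus strand: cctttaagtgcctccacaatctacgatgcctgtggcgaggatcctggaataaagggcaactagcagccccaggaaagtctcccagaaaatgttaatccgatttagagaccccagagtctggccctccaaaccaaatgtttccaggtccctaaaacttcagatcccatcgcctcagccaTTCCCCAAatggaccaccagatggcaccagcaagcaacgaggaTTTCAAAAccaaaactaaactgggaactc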

How the data were processed

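Brain RNA of 2 samples, from a GPHR F/F;Nes mouse and its GPHR F/F littermate, was read on Agilent arrays of 62976 spots. The scans were read with Agilent Feature Extraction 11.5.1.1, per the submitters' processing notes. For each spot the deposited scanner files hold a linear intensity, from which background had been subtracted per the file headers. Deposited flags (other values) mark spots well above background, saturated or outliers. The authors' deposited value table holds log2 values. These matched the log2 intensity shifted by -7.43 for GPHR F/F;Nes and by -8.01 for GPHR F/F, to within 0.001 for 99.9% of probes. Their median was -2.92 for GPHR F/F;Nes, against -3.19 for GPHR F/F. The shifts lay close to the log2 of each array's 75th percentile (173.4 units in GPHR F/F;Nes and 259.5 units in GPHR F/F) with the sign reversed. The deposited values are thus nearly the scaling used here and no independent alternative. The exact origin of the shifts is unknown, and probes were not centred. Both arrays shared 1 slide.

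Outlier spots (96) were left out and no spot was saturated. Each array's log2 75th percentile was subtracted, and a probe counted as measured when well above background on both arrays. A gene's value was the mean of its measured probes. A gene measured on 1 array got a bound against its signal on the other array or that array's lowest well-above signal, whichever was higher. These lowest signals were 5.06 units in GPHR F/F;Nes and 6.28 units in GPHR F/F. Accessions of 32993 probes matched RefSeq gene names. With 1 array per genotype no test was made and genes at least 2-fold apart were counted. The genes named were all 9 members, the other measured complement genes at least 2-fold apart or largest in their list, the 3 largest of other lists, and the first 2 of each marker list. Sentences also name further genes, chosen after their values were seen. An inhibitor and a marker gene counted in their lists are not reported here by name or value. The members and lists were chosen with earlier results of these data known. The procedure was tested on simulated data. Alternatives covered scaling, background correction, filters, probe choice and the fold threshold. Python 3.11.15, R 4.3.3 and limma 3.58.1 (normexp with an offset of 50, quantile and loess) were used.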

Additional observations from a re-analysis of the deposited data

How the results depend on the processing

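With 1 array per genotype no alternative carries a test. Normexp added an offset of 50 units to every signal, which shrinks differences of dim probes and so by itself lowers its medians and counts. The spike-in scaling and the level-window setting were chosen after seeing the data, and spike-in scaling rests on 8 probes whose raw differences ran from 0.15 to 1.30. The median of the measured members was 0.86 with arrays centred on their medians, 0.70 with normexp and 0.18 with spike-in scaling. Members at least 2-fold higher numbered 1 of 6 with normexp, 1 of the 2 that the stricter filter kept, 1 of 6 with spike-in scaling, where 1 was 2-fold lower, 4 of 6 with loess and 4 of 9 without a filter. The median of the other complement genes was 0.19 centred on medians, 0.21 with quantile, 0.084 with normexp, -0.079 with the stricter filter, which kept 18 of 38, and -0.48 with spike-in scaling. Those at least 2-fold higher numbered 2 with normexp, 1 with the stricter filter and 3 with spike-in scaling, and 15 passed 1.5-fold and 5 passed 3-fold. Over all genes, the counts higher and lower were 1081 and 818 centred on medians, 1233 and 576 with quantile, 330 and 90 with normexp, 5549 and 788 without a filter, 500 and 189 with the stricter filter, 186 and 9233 with spike-in scaling, 4370 and 1382 at 1.5-fold and 549 and 60 at 3-fold. The share higher among genes past 2-fold was 85.3% as reported, 56.9% centred on medians, 68.2% with quantile, 74.7% with loess and 1.97% with spike-in scaling. The cause of these shifts was not tested. Among the 45 named genes no difference of at least 2-fold changed sign, and the spike-in shift of -0.95 is too small to turn one. Several genes within 2-fold did change sign. With spike-in scaling Cd59a went from 0.28 to -0.67, C4a from 0.84 to -0.11 and Clu from 0.93 to -0.02. No paired analysis was possible because each genotype had 1 array.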
